A study of Mus musculus with 30 samples.

Results

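The AP-1 family genes are Jun, Junb, Jund, Fos, Fosb, Fosl1, Fosl2, Atf3, Batf and Batf3, which were taken by name as 10 of the 21951 protein-coding genes of the GENCODE annotation. Their chromatin was read from lists of peaks of H3K27ac, the acetylation of lysine 27 on histone H3 that marks active promoters and enhancers. All peaks within 50 kb of a member or within 2.5 kb of one of its annotated start sites were collected. That gave 71 of 27367 peaks in CK1750 with DMSO, 66 of 24601 in CK1750 with UNC0638, 62 of 30641 in Tnm2 with DMSO and 52 of 18794 in Tnm2 with UNC0638. Joined across the 4 lists, these peaks formed 72 of 37710 regions.

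CK1750 and Tnm2 are mouse lung adenocarcinoma cell lines, and both were cultured in DMEM with fetal bovine serum and either the solvent DMSO or 1 µM UNC0638. UNC0638 inhibits the histone methyltransferases G9a and Glp, which methylate lysine 9 of histone H3. The question behind the comparison is how inhibition of G9a/Glp changed active chromatin, here at one family of genes. The labels give no length of treatment, and the study's methods give several days for its cell culture experiments in general. Each line is a single established line, so a difference between them is one between 2 lines only. The 9 H3K27ac samples (3, 2, 2 and 2 in the groups named above, in that order) carry 2, 1, 2 and 2 replicate numbers, so that CK1750 with UNC0638 has a single numbered replicate and some samples are labelled as repeat sequencing. The replicate number in the study's methods differs from that in the labels. The samples are represented by 1 merged list per group, so no value below has a replicate error and no group difference was tested. Where 4 values stand side by side, they are in the order CK1750 with DMSO, CK1750 with UNC0638, Tnm2 with DMSO and Tnm2 with UNC0638. Read depth is unknown for each list. A list of DMSO peaks and a list of UNC0638 peaks can differ through depth as well as through chromatin, which cannot be told apart here.

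AP-1 is a dimer of basic leucine zipper (bZIP) proteins that binds sequences of the form TGANTCA. The middle base N was left free in the searches below. Jun proteins pair with one another or with Fos proteins, while Fos proteins need a Jun partner. Many of the genes are immediate early genes, switched on within minutes by growth factor and stress kinases, and the family acts downstream of the RAS and MAP kinase cascade that drives many lung adenocarcinomas. Batf and Batf3 are best known from lymphocytes and dendritic cells.

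A promoter peak, meaning a peak within 2.5 kb of any annotated start site of the gene, was present for 8 members in each of the 4 lists. The 8 were the same genes throughout, namely Jun, Junb, Jund, Fos, Fosb, Fosl1, Fosl2 and Atf3. Batf and Batf3 had no promoter peak in any list. Over all protein-coding genes, 50%, 49.1%, 49.4% and 41.3% had a promoter peak in the 4 lists. A promoter peak in all 4 lists was found at 39.2% of genes and one in no list at 46%. With UNC0638, 0 of the 8 members lost their promoter peak in either line, against 4.85% of genes with a DMSO promoter peak in CK1750 and 17.7% in Tnm2. Of the 2 members without one, 0 gained a promoter peak, against 3.03% and 1.18% of such genes.

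The tumor cell identity given by the labels was checked at the promoters of marker genes. Of 9 epithelial and lung adenocarcinoma markers, 6 had a promoter peak in each list but that of Tnm2 with UNC0638, which held 7. Nkx2-1, the lung lineage factor, was among them in all lists, while Epcam and Napsa had none. Sftpb, a surfactant protein gene, had a peak only with UNC0638 in Tnm2. Of 3 leukocyte markers (Ptprc, Itgam and Cd3e), 0 had a promoter peak in any list. Of 3 mesenchymal markers, 2, 2, 2 and 1 had one. Vim had one in every list, 3863, 4437, 3310 and 3205 bp wide, at scores of 3006.11, 2257.63, 1377.2 and 618.11. Col1a1 had one in every list but that of Tnm2 with UNC0638, at scores of at most 102.58, and Pdgfra had none. Of 2 endothelial markers, 0, 0, 1 and 1 had a promoter peak. The endothelial gene was Pecam1, with scores of 116.3 and 230.74 in the lists of Tnm2.

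Scores and widths were then used to place the members within each list. The score is -10 log10 of the P value given by the authors' peak caller. It depends on depth, so members were placed by its rank within a list, as the percent of the list's peaks with a lower score. Scores given for single peaks, the score bands and the minimum score of 100 used elsewhere are not adjusted for depth. A difference in such scores between lists is therefore not read as a change. Peaks tied on a score were placed at the middle of their tie. Scores pile up at 3100, and 610, 421, 197 and 15 peaks in the lists reached it. The median rank of the members' best promoter peaks was 96.5%, 96.5%, 93.4% and 85.8%. The corresponding medians over all genes with a promoter peak were 77.2%, 74.1%, 77.3% and 69.1%. The members' median was above that of all genes in every list, and both medians were lowest in Tnm2 with UNC0638. Fosb was below the median of all genes in every list but that of CK1750 with UNC0638, and Atf3 was below it in both lists of Tnm2. The number of members whose best promoter peak was in the top 10% of scores was 5, 7, 6 and 3 of 8, while 24.3%, 21.3%, 25.4% and 18.9% of genes with a promoter peak reached this level.

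**Figure D1:**
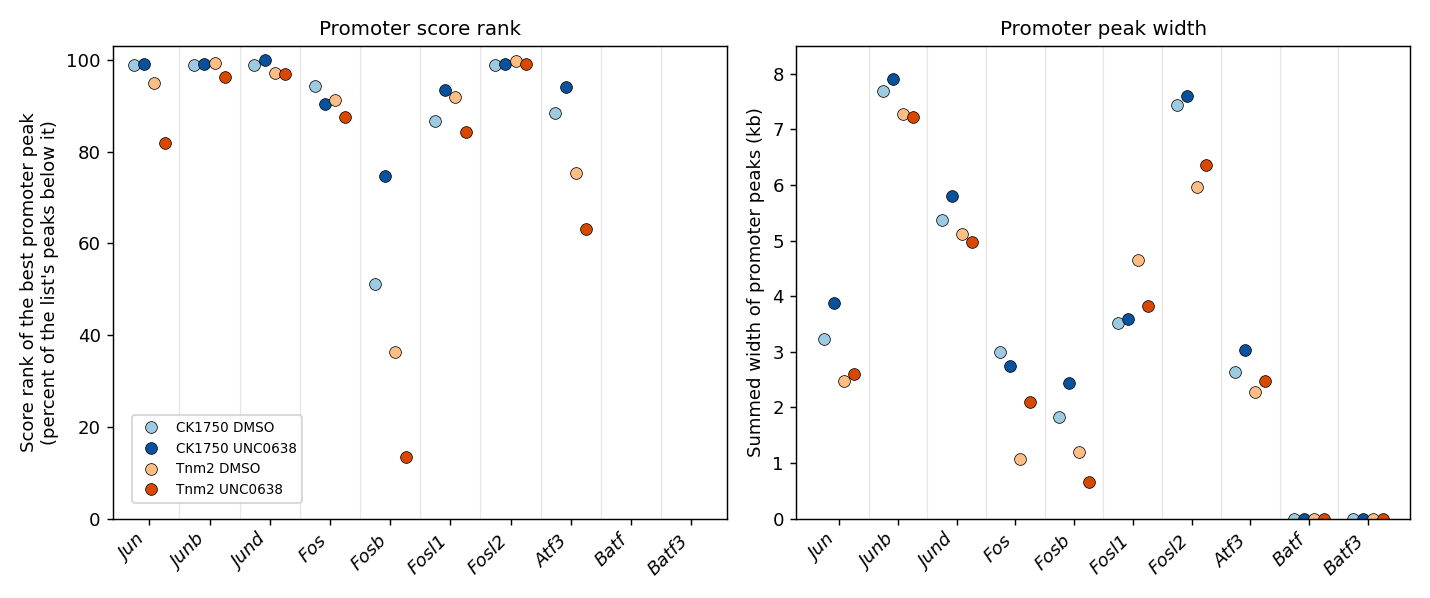
Promoter H3K27ac of the 10 AP-1 family genes in the 4 peak lists. The left panel plots the score rank of the best promoter peak (percent of the list's peaks with a lower score, tied peaks at the middle of their tie). The right panel plots the summed width of promoter peaks in kb. Both have 1 point per gene and list. Junb, Jund and Fosl2 sit near the top of the left panel in all lists, Fosb ranges from 13.6% to 74.6%, and Batf and Batf3 have no promoter peak, so no point on the left and 0 on the right.

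The members' promoter peaks were also wide. The median width of the widest promoter peak per member was 2837.5 bp in CK1750 with DMSO, 3130.5 bp in CK1750 with UNC0638, 2565 bp in Tnm2 with DMSO and 1882.5 bp in Tnm2 with UNC0638, while the medians over all genes were 1247, 1406, 1243 and 1219 bp. A peak of at least 4 kb marked 2, 2, 3 and 1 of the 8 members, and 0.902%, 1.74%, 0.95% and 0.861% of genes with a promoter peak. Because the caller can split one acetylated stretch into adjoining peaks, the summed width of all promoter peaks of a gene was taken as well. Its median over the members was 3376, 3727.5, 3562 and 3215 bp, against 1437, 1560, 1434 and 1331 bp over all genes. Once peaks within 1 kb were joined, the median of the widest peak was 3261.5, 3949, 3562 and 3323 bp in the 4 lists.

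Jun, Junb and Jund encode the partners on which every AP-1 dimer with a Fos protein relies. Jun (chromosome 4, 95049034 to 95052222, minus strand) has a single annotated start site. Its peak at that site was 3235 bp wide in CK1750 with DMSO, 3327 bp in CK1750 with UNC0638 and 2477 bp in Tnm2 with DMSO. In Tnm2 with UNC0638 the site was covered by peaks of 1535 and 1065 bp that lay 5 bp apart. The score rank was 98.8% and 99% in the CK1750 lists, where the peak was at the score ceiling, and 94.9% and 81.8% in Tnm2. Among genes with a promoter peak, ordered by best score, Jun held position 52 and 51 in CK1750, shared with other peaks at the ceiling, position 1466 in Tnm2 with DMSO and position 2913 in Tnm2 with UNC0638. In that last list Jun was the lowest placed of the Jun genes. The window around Jun was otherwise nearly empty. No other protein-coding gene lay within 50 kb, and its sole distal peak, of 598 bp and score 70.62, was 30.7 kb upstream of the start site in an intron of Junos in CK1750 with UNC0638.

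The 250 bases upstream of the Jun start site in the RefSeq annotation of GRCm38.p6 (chr4:95052223-95052472, minus strand) are shown because Jun is known to be activated through an AP-1-like element in its own promoter. They lay under peaks in full in 3 lists and for 245 bases in Tnm2 with UNC0638. Capitals mark TGACATCA, which began 45 bases upstream of the start site and was present upstream of 2.93% of 32851 RefSeq promoters.
Jun upstream: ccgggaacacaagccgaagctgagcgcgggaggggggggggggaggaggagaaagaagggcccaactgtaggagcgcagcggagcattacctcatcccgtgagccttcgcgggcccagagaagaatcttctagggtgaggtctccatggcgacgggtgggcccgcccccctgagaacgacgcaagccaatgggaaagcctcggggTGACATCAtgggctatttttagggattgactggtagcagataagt

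Junb (chromosome 8, 84974484 to 84978718, minus strand), often an antagonist of Jun in growth control, was the most widely acetylated Jun gene. Summed promoter width was 7686 bp in CK1750 with DMSO, 7912 bp in CK1750 with UNC0638, 7274 bp in Tnm2 with DMSO and 7222 bp in Tnm2 with UNC0638. In CK1750 with UNC0638 this was 1 unbroken peak. In the other lists it was a pair of peaks separated by 48, 61 and 321 bp. The gene was at the ceiling in CK1750 and held score position 238 and 664 in the lists of Tnm2. The domain was of similar width in all lists, while its place by score varied.

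Jund (chromosome 8, 70698949 to 70700616, plus strand), the most steadily expressed Jun gene in many tissues, carried a peak over the gene itself and more acetylation upstream, as 1 peak of 2686, 2934 and 2653 bp in 3 lists and as peaks of 1541 and 753 bp in Tnm2 with UNC0638. The peak over the gene was 2678, 2869, 2470 and 2688 bp wide in the 4 lists, a narrow range. It was at or above the ceiling in CK1750 and held score position 857 with DMSO and 554 with UNC0638 in Tnm2. Jund was thus the Jun gene whose position in Tnm2 was nearer the top with UNC0638 than with DMSO.

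Fos, Fosb, Fosl1 and Fosl2 encode the Fos proteins, of which Fos and Fosb carry strong activation domains and Fosl1 (Fra-1) and Fosl2 (Fra-2) lack them. Fos (chromosome 12, 85473890 to 85477273, plus strand) had a promoter peak of 2989 bp in CK1750 with DMSO. With UNC0638 it was split there into peaks of 855 and 1886 bp, 233 bp apart. In Tnm2 the DMSO list held 1 peak of 1078 bp, and the UNC0638 list held peaks of 854 and 1253 bp, 186 bp apart. The upstream peak of 854 bp had no counterpart in Tnm2 with DMSO and was the only promoter peak of a member that was gained in Tnm2. The score rank of the best peak was 94.2%, 90.3%, 91.2% and 87.4% in the 4 lists, and score position was 1594, 2215, 2475 and 2108. Fos was the exception among the 8 members in CK1750, with a lower score rank and a smaller summed width with UNC0638 than with DMSO.

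The 250 bases upstream of the Fos start site (chr12:85473640-85473889, plus strand, RefSeq, GRCm38.p6) lay under a peak in full in every list and are shown as the best known serum-responsive promoter of the family. Capitals mark the TATA motif TATAAA, 33 bases upstream of the start site, which 12.4% of promoters carried. The CArG box bound by serum response factor lies further upstream in Fos and was not found in this window.
Fos upstream: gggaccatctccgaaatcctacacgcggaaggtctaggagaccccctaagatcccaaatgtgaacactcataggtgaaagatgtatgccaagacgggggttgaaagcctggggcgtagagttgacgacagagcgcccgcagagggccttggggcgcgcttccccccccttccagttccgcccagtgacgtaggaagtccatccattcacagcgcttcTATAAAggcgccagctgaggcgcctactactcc

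Fosb (chromosome 7, 19302696 to 19310051, minus strand) differed most between lists. The promoter was covered by peaks of 763, 639 and 426 bp in CK1750 with DMSO and by peaks of 1407 and 1027 bp in CK1750 with UNC0638. In Tnm2 it was covered by peaks of 597 and 604 bp with DMSO and by a single peak of 665 bp with UNC0638. The best peak had a score rank of 51.1%, 74.6%, 36.4% and 13.6% in the 4 lists. Score position was 8994 of 10977 genes in CK1750 with DMSO, 5289 of 10777 in CK1750 with UNC0638, 9687 of 10845 in Tnm2 with DMSO and 8603 of 9057 in Tnm2 with UNC0638. Fosb was thus the weakest of the marked members in every list, and with UNC0638 it stood higher in CK1750 and remained among the lowest genes in Tnm2. The score of the best peak in Tnm2 with DMSO was 97.62, so a minimum score of 100 removed this promoter from both lists of Tnm2.

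The 250 bases upstream of the Fosb start site (chr7:19310046-19310295, minus strand, RefSeq, GRCm38.p6) are shown because this promoter changed rank most between lists. They lay under a peak in full in every list. The sequence holds GGGCGG, a motif bound by Sp1, 3 times, beginning 235, 230 and 46 bases upstream of the start site and here in capitals. The first pair overlap by 1 base.
Fosb upstream: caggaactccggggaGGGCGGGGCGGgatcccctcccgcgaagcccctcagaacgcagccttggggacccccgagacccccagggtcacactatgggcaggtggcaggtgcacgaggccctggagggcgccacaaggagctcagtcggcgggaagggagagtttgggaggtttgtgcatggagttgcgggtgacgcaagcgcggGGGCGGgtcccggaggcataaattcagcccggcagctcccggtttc

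Fosl1 (chromosome 19, 5447547 to 5455946, plus strand), a Fos gene often raised by RAS signalling, had promoter peaks that together covered 3517 bp in CK1750 with DMSO, 3584 bp in CK1750 with UNC0638, 4647 bp in Tnm2 with DMSO and 3830 bp in Tnm2 with UNC0638. The score rank was 86.6%, 93.3%, 91.9% and 84.2%, and score position was 3494, 1564, 2247 and 2581. In CK1750 with UNC0638 the peak of 3584 bp joined the stretch that DMSO cells showed as peaks of 2046 and 943 bp, 299 bp apart. The widest Fosl1 peak of all, 4647 bp, was that of Tnm2 with DMSO.

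Fosl2 (chromosome 5, 32135801 to 32157842, plus strand) had the widest promoter peak of the family in both DMSO lists and in Tnm2 with UNC0638. Its widest peak was 7432 bp in CK1750 with DMSO, 7591 bp in CK1750 with UNC0638, 4856 bp in Tnm2 with DMSO and 5151 bp in Tnm2 with UNC0638. By width it was gene number 7, 20, 53 and 30 of all genes with a promoter peak. The lines differed in that a separate peak of 1108 and 1205 bp, 1109 and 851 bp further upstream, stood apart in Tnm2 and was part of the single peak in CK1750. Fosl2 was at the score ceiling in 3 lists, and at position 162 in Tnm2 with UNC0638 it was the highest placed member there.

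Atf3, a stress-induced bZIP gene whose product pairs with Jun proteins, spans 47744 bp (chromosome 1, 191170296 to 191218039, minus strand) and has 3 annotated start sites. Its promoter acetylation lay mostly at the internal start site near 191183108. A region upstream of the gene (191223636 to 191225737), at a start site of another gene, was marked in all 4 lists. It was centred in an exon of D730003I15Rik and had score ranks of 91.5%, 94.3%, 94.3% and 89.6%, above the best Atf3 promoter peak in every list. A weaker region in an Atf3 intron (191193160 to 191194738) was also marked in all 4 lists. The most upstream start site, at 191218039, had a nearby peak only in Tnm2, of 405 bp and score 53.9 with DMSO and of 594 bp and score 51.74 with UNC0638. Those scores were just above the cutoff of 50. At the internal site, CK1750 with DMSO had peaks of 1043 and 885 bp and CK1750 with UNC0638 had 1 peak of 2143 bp. A further promoter peak beside it was called in CK1750 only, of 710 bp (rank 32.5%) with DMSO and 885 bp (rank 32.0%) with UNC0638. Tnm2 had peaks of 992 and 888 bp with DMSO and of 957 and 929 bp with UNC0638. The score rank was 88.5%, 94%, 75.3% and 63.1%, and score position was 3053, 1415, 5754 and 5170.

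Batf (chromosome 12, 85686669 to 85709087, plus strand) and Batf3 (chromosome 1, 191097847 to 191108945, plus strand) were without promoter peaks but not without nearby peaks. Batf had an intronic peak of 552 bp and score 184.08 in CK1750 with DMSO, 9.09 kb downstream of its nearest start site. In CK1750 with UNC0638 it was 567 bp wide with a score of 60.56. No peak was called within 50 kb of Batf in Tnm2 with UNC0638. Batf3 had a distal peak in every list 22.4 to 22.5 kb upstream, in an intron of Nsl1, with score ranks of 67.2%, 65.7%, 62.5% and 60.5%.

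**Figure D2:**
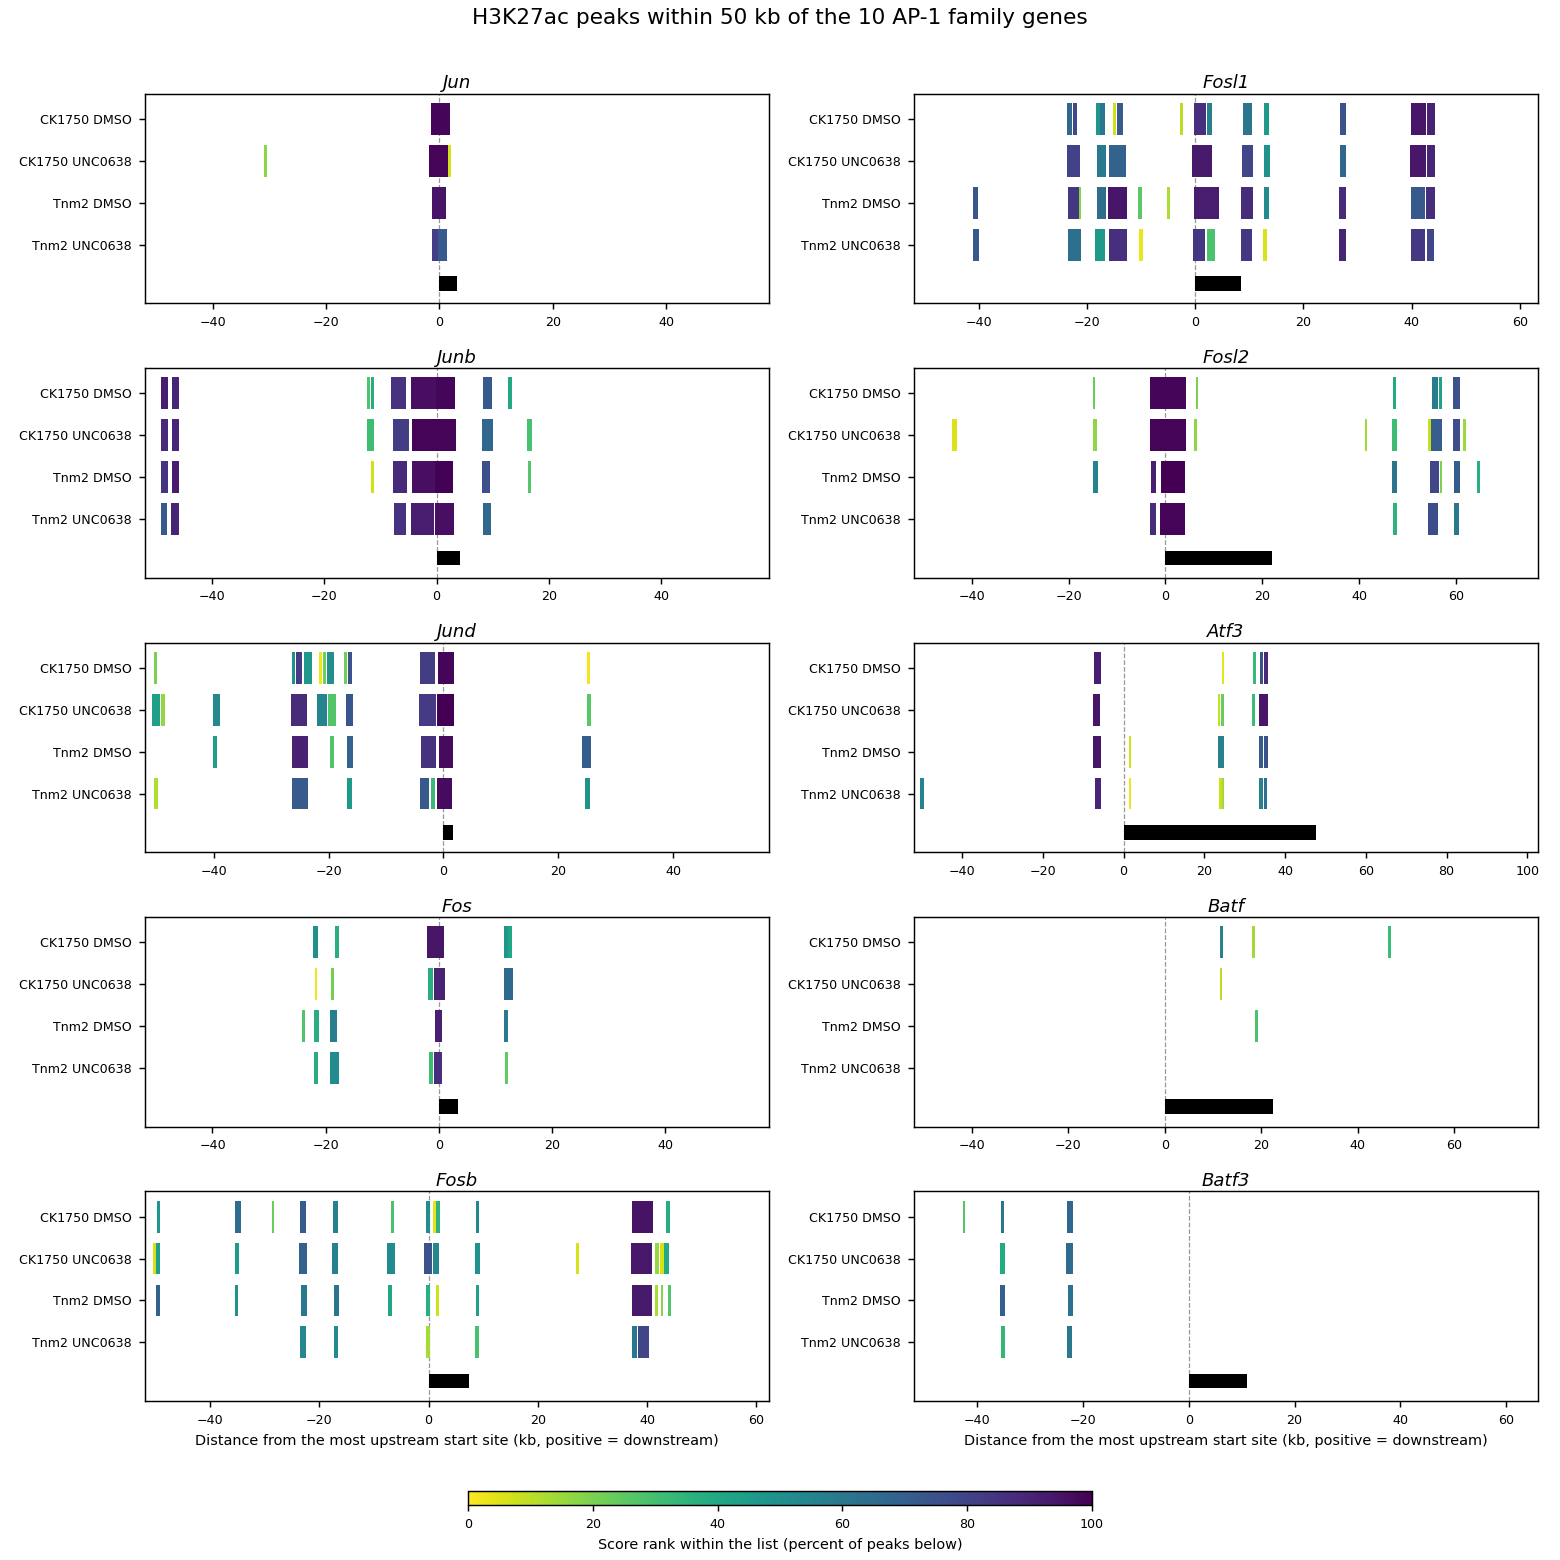
H3K27ac peaks around the 10 genes by distance in kb from the most upstream annotated start site, with transcription to the right. Each panel has 1 row per list, each block is a peak coloured by its score rank within the list, and the black bar is the gene. Fosl2 and Junb carry wide dark blocks at the start site, and Batf and Batf3 carry none there. Atf3 carries most of its promoter blocks at an internal start site, with other blocks in an intron and upstream of the gene. Junb, Jund, Fosb and Fosl1 lie among many other genes, to whose start sites part of the blocks belong.

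The treatments were compared within each line at the promoters. In CK1750, summed promoter width was larger with UNC0638 at 7 of 8 members, against 65.1% of genes with a promoter peak in both lists. In Tnm2 it was larger at 4 of 8, against 29.2% of genes. Score position was compared only for members under the ceiling in both lists, since tied scores carry no order. In CK1750 there were 4 such members, and 3 (Fosb, Fosl1 and Atf3) stood nearer the top with UNC0638, against 49.9% of genes. In Tnm2 there were 7, and 4 (Jund, Fos, Fosb and Atf3) stood nearer the top, against 54.4% of genes. The positions in Tnm2 are among fewer genes with UNC0638 (9057) than with DMSO (10845), so a smaller number need not be a higher place. As the percent of marked genes with a lower best rank, Jund alone of these 4 was higher with UNC0638, at 92.1% with DMSO and 93.9% with UNC0638. Fos was at 77.2% and 76.7%, Atf3 at 46.9% and 42.9% and Fosb at 10.7% and 5.01%. By score rank among all peaks, 7 of 8 members were higher with UNC0638 in CK1750, against 33.9% of genes, but 4 of these were at the ceiling, where the rank follows from how many peaks share it. In Tnm2 0 of 8 were higher, against 10.9% of genes.

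The lines were compared in the same way. With DMSO, CK1750 had the larger summed promoter width at 7 of 8 members, Fosl1 being the exception, while 51% of genes were wider in CK1750. With UNC0638 it was again 7 of 8, again without Fosl1, against 77.2% of genes. Score position was nearer the top in CK1750 at 3 of 4 members under the ceiling with DMSO (Fos, Fosb and Atf3), against 49.3% of genes. With UNC0638 it was 3 of 4 (Fosb, Fosl1 and Atf3), against 44% of genes. Fos, whose position number was smaller in Tnm2, had 79.4% of marked genes below it in CK1750 and 76.7% in Tnm2. By score rank, the gap between lines (CK1750 minus Tnm2) was widest for Fosb, at 14.7 points with DMSO and 61.1 points with UNC0638. Atf3 followed at 13.2 and 31.0 points. Jun, at the ceiling in both lists of CK1750, had gaps of 3.94 and 17.3 points.

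Distal peaks, those more than 2.5 kb from every annotated start site, were then counted within 50 kb of each member. They numbered 25, 22, 18 and 13 in the lists. The mean per member was 2.5, 2.2, 1.8 and 1.3, while the mean over all protein-coding genes was 1.01, 0.878, 1.2 and 0.64. At least 1 distal peak was present for 9, 10, 8 and 8 of the 10 members, and for 38%, 34.7%, 40.9% and 28.7% of genes. With UNC0638, 5 of 10 members had fewer distal peaks in CK1750 and 3 had more, and 6 had fewer and 2 had more in Tnm2. Jun, with 0 distal peaks in both lists of Tnm2, is among these 10 but not among the genes of the Tnm2 shares that follow. Among genes with a distal peak in either list, 44.6% had fewer and 25.3% had more in CK1750, and 72.3% had fewer and 7.15% had more in Tnm2. The lower number in Tnm2 with UNC0638 was not seen at equal list lengths. When each list was limited to its 18794 highest-scoring peaks, the distal peaks numbered 14, 11, 11 and 13, so that Tnm2 had 2 more with UNC0638 than with DMSO, and CK1750 still had 3 fewer.

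**Figure D3:**
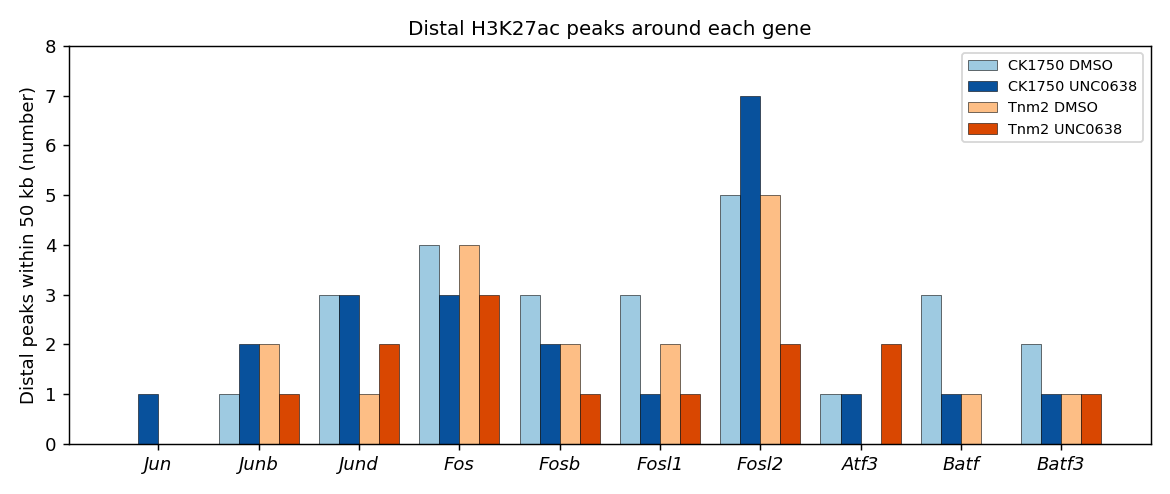
Number of distal H3K27ac peaks within 50 kb of each AP-1 family gene, 1 bar per peak list, with bars starting at 0. Fosl2 has the most, 5, 7, 5 and 2 in the order of the legend, and Jun has 1 in a single list.

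Over all distal peaks, the median score rank was 34.9%, 34.7%, 37.7% and 36.7% in the 4 lists. For the members' distal peaks it was 40.2%, 26.1%, 56.5% and 46.0%. The highest ranked ones in CK1750 with DMSO belonged to Junb (2619 bp, rank 85.6%), Fosl2 (1497 bp, rank 74.9%) and Jund (795 bp, rank 74.8%). Junb's joined distal region began at 84983640, close past its joined promoter region, which ended at 84983238. The Junb peak lay 6.3 to 6.8 kb upstream of its nearest start site. It was called in all 4 lists, at 2619, 2831, 2473 and 2235 bp and at ranks of 85.6%, 82.3%, 88.2% and 85.8%. The Fosl2 peaks 44.6 to 49.5 kb downstream of its nearest start site were likewise present in every list. Fos had a peak 10.8 to 11.6 kb downstream in each list, in CK1750 with DMSO as a pair of 707 and 659 bp and with UNC0638 as 1 peak of 1544 bp. Fos also had peaks 18.0 to 18.8 kb and 21.6 to 21.8 kb upstream in each list. Fosb had one 16.8 to 17.1 kb upstream in each list, at ranks of 56.3%, 56.6%, 61.5% and 52.5%. A further Fosb peak 6.60 to 7.09 kb upstream was called in 3 lists, at 641 bp (rank 28.2%), 1371 bp (rank 52.3%) and 715 bp (rank 40.8%), and not in Tnm2 with UNC0638. Fosl1 had one 17.1 to 18.0 kb upstream in each list, at 813 bp and rank 60.9% in CK1750 with DMSO for the stronger of a pair.

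Joined over the lists, the members had 27 distal regions, of which 10 (37%) were in all 4 lists and 10 (37%) in 1 list only. Among all distal regions, 19% were in all 4 lists and 48.6% in 1 list only. The members' other 45 regions lay within 2.5 kb of a start site of any gene, with 27 (60%) in all 4 lists and 4 (8.89%) in 1 list only, against 52.4% and 22.1% of all such regions.

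Peaks lost and gained with UNC0638 were counted by overlap within a line, a lost peak being a DMSO peak overlapped over no base by an UNC0638 peak and a gained peak the reverse. In CK1750, 7 of 71 member peaks were lost (9.86%), against 21.8% of all peaks, and 14 of 66 were gained (21.2%), against 19.6%. In Tnm2, 17 of 62 were lost (27.4%), against 43.1%, and 2 of 52 were gained (3.85%), against 8.81%. Since lost peaks were mostly of low score, bands of score were compared as well. From 50 to 100, 5 of 19 member peaks were lost in CK1750 (26.3%) and 12 of 16 in Tnm2 (75%), against 50.1% and 79.4% of all peaks of that band. At 500 or more, 0 of 18 and 0 of 20 were lost, against 0.0938% and 0.235%. Among peaks within 2.5 kb of a start site, 2 of 46 were lost in CK1750 and 9 of 44 in Tnm2, against 12.2% and 31.3%. Of the same class, 7 of 44 were gained in CK1750 and 1 of 39 in Tnm2, against 10.5% and 4.46%. Among distal peaks, 5 of 25 were lost in CK1750 and 8 of 18 in Tnm2, against 33% and 55%, and 7 of 22 and 1 of 13 were gained, against 31.1% and 14.9%.

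**Figure D4:**
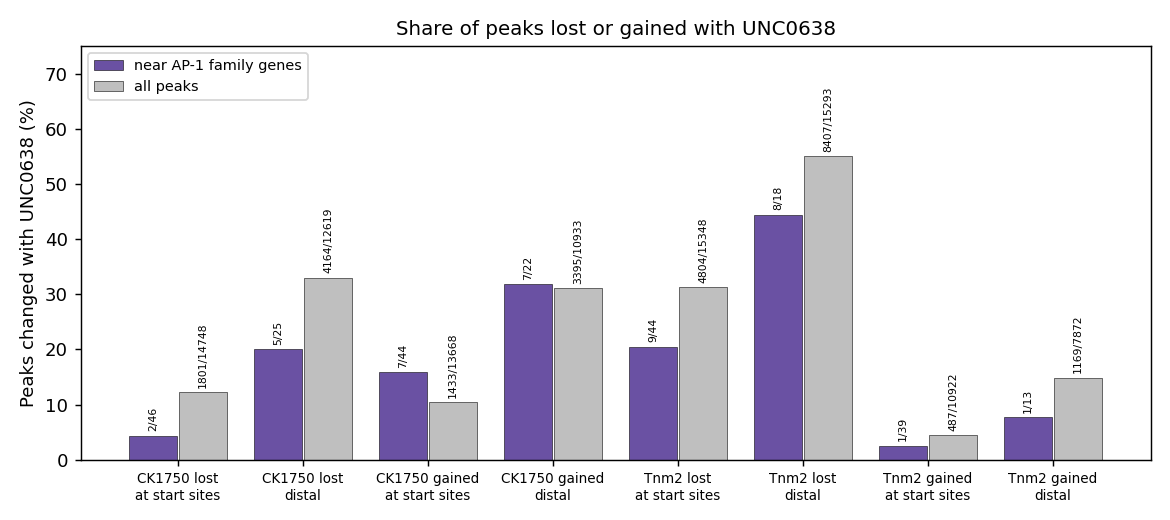
Share of peaks lost (of DMSO peaks) or gained (of UNC0638 peaks) in each line, for peaks near the AP-1 family genes and for all peaks, with the number changed over the number of peaks above each bar. The y axis is the percent of peaks and starts at 0. The members' share is the lower in every class but CK1750 gained, where 7 of 44 peaks at start sites and 7 of 22 distal peaks were gained.

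Most of the changed distal peaks had low scores. The lost ones of highest rank in CK1750 were a Fos peak 18.0 kb upstream (764 bp, rank 37.4%), a Batf peak 44 kb downstream (506 bp, rank 31.3%) and a Batf3 peak 42.5 kb upstream (370 bp, rank 26.4%). The middle of that Batf peak is mostly a simple repeat of CTCTGC, and the peak had a score of 85.31. The Fos peak had a UNC0638 neighbour of 661 bp (rank 21.4%) in the same joined region, which it did not overlap, so this pair is counted as 1 lost and 1 gained. The gained ones of highest rank in CK1750 were a Junb peak 14.4 kb downstream (777 bp, rank 28.9%), that Fos neighbour and the Jun peak 30.7 kb upstream (rank 17.3%). In Tnm2 the lost ones of highest rank were a Fosl2 peak 14.4 kb upstream (919 bp, rank 55.1%), the Fosb peak 7.09 kb upstream (rank 40.8%) and a Fosl2 peak 54 kb downstream (657 bp, rank 36.6%). The single gained one in Tnm2 was a Jund peak 50.1 kb upstream (732 bp, rank 11.8%), in an exon of Pgpep1.

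Between lines, 13 of 71 member peaks in CK1750 with DMSO had no counterpart in Tnm2 with DMSO (18.3%), against 26.4% of all peaks, and 11 of 62 the other way (17.7%), against 34.9%. With UNC0638, 24 of 66 in CK1750 had none in Tnm2 (36.4%, against 39%), and 4 of 52 the other way (7.69%, against 17.4%). The distal peaks of highest rank found with DMSO in CK1750 alone were the Batf peak 9.09 kb downstream (rank 54.8%), the Batf peak 44 kb downstream and the Batf3 peak 42.5 kb upstream. In Tnm2 alone they were the Fosl2 peak 54 kb downstream (rank 36.6%), a Fos peak 23.9 kb upstream (576 bp, rank 27.5%) and the Junb peak 14.4 kb downstream (488 bp, rank 26.6%).

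The summed length under peaks in the windows of the members was 87.9 kb in CK1750 with DMSO, 103.9 kb in CK1750 with UNC0638, 88.2 kb in Tnm2 with DMSO and 75.7 kb in Tnm2 with UNC0638. Fosb contributed 11.9, 15.5, 11.1 and 6.55 kb, and Junb 16.2, 17.2, 14.8 and 13.4 kb. Over the whole lists the covered length was 28.5, 31.6, 31.8 and 22.9 Mb, which moved the same way in each line. At equal list lengths the difference in the members' windows, UNC0638 minus DMSO, was 13.3 kb in CK1750 and -2.56 kb in Tnm2. The windows of Junb, Jund, Fosb and Fosl1 hold 9, 5, 7 and 11 other protein-coding genes, while those of Jun, Fos and Fosl2 hold 0, so the covered length of the former belongs in part to neighbours.

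The AP-1 motif TGANTCA, which reads the same on both strands up to its middle base, was then sought in the regions. Among the central 300 bases of the 27 distal member regions, 9 (33.3%) held it, compared with 15.3% of 20537 distal regions in the joined lists. Of the 10 that were in all 4 lists, 5 held it (50%), against 19.1% of all such regions. Of the 45 member regions near start sites, 6 (13.3%) held it, against 7.62%. None of the 9 members matched in RefSeq held it in the 250 bases upstream of the start site, where 6.75% of promoters did. The same was true of the cyclic AMP response element TGACGTCA, at 1.55% of promoters. Fosl1, the member without a match in RefSeq, was not counted, and its promoter region of 5018 bp held TGANTCA 5 times. GGGCGG was present upstream of 7 of the 9 matched members and of 32.7% of promoters. For Jund, 1 of the 9, the RefSeq start site (70697739) is not the GENCODE one used above (70698949). Its 250 bases lay under peaks for 26, 85, 159 and 0 bases in the 4 lists. The comparison of distal regions depended on the stretch searched. Over whole regions, 44.4% of the members' distal regions and 39.7% of all distal regions held TGANTCA, and of those in all 4 lists 60% and 66.6% did. These shares are a description of the sequences and were not tested.

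Distal stretches that hold the motif more than once are shown for 3 members, since AP-1 proteins can bind near their own genes. Other stretches with 2 matches, 1 each at Fosb and Fosl2, are not shown. Each is the 300 bases with the most matches in its region, plus strand of GRCm38, with TGANTCA in capitals. The Junb stretch (chr8:84985557-84985856) holds it 3 times and lay under a peak in full in all 4 lists. The Fosb stretch (chr7:19316744-19317043) also holds it 3 times and lay under a peak for 229, 300, 262 and 0 bases in the lists. The Fosl1 stretch (chr19:5429861-5430160) holds it 2 times and lay under a peak for at least 264 bases in every list. In the matches shown the middle base is C or G, except for 1 at Fosb (TGATTCA) and 1 at Fosl1 (TGAATCA).
Junb distal: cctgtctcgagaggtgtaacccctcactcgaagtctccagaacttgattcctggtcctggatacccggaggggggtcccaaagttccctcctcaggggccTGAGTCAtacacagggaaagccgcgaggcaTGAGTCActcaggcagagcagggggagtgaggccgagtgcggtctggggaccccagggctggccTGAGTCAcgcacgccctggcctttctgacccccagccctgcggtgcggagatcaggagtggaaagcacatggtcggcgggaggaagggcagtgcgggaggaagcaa
Fosb distal: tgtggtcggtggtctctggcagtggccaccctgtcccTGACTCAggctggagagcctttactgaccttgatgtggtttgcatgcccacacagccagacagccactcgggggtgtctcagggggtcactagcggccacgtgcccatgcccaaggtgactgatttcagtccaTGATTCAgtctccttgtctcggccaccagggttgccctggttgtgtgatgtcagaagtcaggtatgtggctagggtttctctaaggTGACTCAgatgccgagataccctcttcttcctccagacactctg
Fosl1 distal: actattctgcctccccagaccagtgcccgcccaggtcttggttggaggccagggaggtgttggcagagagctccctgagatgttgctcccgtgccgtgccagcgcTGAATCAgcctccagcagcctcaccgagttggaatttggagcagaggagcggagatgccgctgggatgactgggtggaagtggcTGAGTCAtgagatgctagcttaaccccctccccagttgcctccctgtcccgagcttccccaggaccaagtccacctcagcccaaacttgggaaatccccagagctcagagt

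Other genes of the pathway were read in the same way at their promoters. Of 13 other bZIP genes, all 13 had a promoter peak in CK1750 with DMSO and 12 had one in each other list. Maf, a bZIP factor of the large Maf group, had one only in CK1750 with DMSO (684 bp, score 98.78). Of 15 kinases and phosphatases of the MAP kinase cascade, 14 had a promoter peak in every list, the exception being Mapk10 (JNK3), a kinase of neural tissue. Dusp4, a phosphatase that switches MAP kinases off, had a promoter peak of 6386, 6878, 7289 and 6737 bp in the lists. Of 10 other immediate early genes and factors that act on them, all had one in CK1750 and 9 in Tnm2. The exception in Tnm2 was Elk1, a partner of serum response factor and not itself an immediate early gene. Of 10 genes known as AP-1 targets, 8, 9, 8 and 8 had one and 7 had it in all 4 lists. Spp1 (osteopontin) had a promoter peak in CK1750 with UNC0638 and Tnm2 with DMSO, at scores of 52.04 and 106.75. Timp1, an inhibitor of matrix metalloproteinases, lacked one only in Tnm2 with DMSO and had scores of 55.55, 58.38 and 56.1 elsewhere. Mmp9 had none in any list. Among the promoter calls of these 4 groups of genes that differed between lists, those of Elk1 in CK1750 had the highest scores, 229.53 and 149.18.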

How the data were processed

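The authors sequenced H3K27ac chromatin immunoprecipitates (antibody ab4729) of CK1750 and Tnm2 cells, and samples were grouped by line and treatment as the labels give them. Per the labels, reads were mapped to mm10 with Bowtie2, handled with SAMtools, and peaks were called with MACS 1.4.2. The study's methods give a P value cutoff of 1e-05. Each deposited line holds the position of 1 peak and its score, which the authors' caller computed as -10 log10 of a P value, so that the cutoff is a score of 50. The labels assign 1 merged list to each of the 4 groups, and the libraries behind each list are not given in the sources used here. The H3K9me2 and input DNA samples (21 of 30) were not analysed here.

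Starts were converted to 1-based positions. Genes and 132666 start sites of all transcripts came from GENCODE M21 (GRCm38.p6, 55450 genes). On 21 chromosomes 0 peaks ended beyond the chromosome end. Shared peaks overlapped by at least 1 bp. Gene positions order protein-coding genes by their best promoter score. Alternatives were a higher score minimum, equal list lengths, joined neighbours, other windows, other overlap rules and other start sites. Since each group has 1 list, no test was made and no p-value computed. Counts were instead set beside the same share over all genes or peaks. Promoter sequences came from RefSeq (GRCm38.p6) and were matched by symbol for 9 of 10 members, all but Fosl1. Motifs were sought on both strands, and the CArG box was CC, then 6 bases of A or T, then GG. The members, gene lists and named peaks (for each line and direction, up to 3 distal peaks of highest rank, and the highest-ranked distal peak of a member) were chosen with earlier results of these data known. One gene of the fixed lists is not reported here. Dusp4 and the Fosb, Junb and Fosl1 stretches were picked after their values were seen. The software was Python 3.11.15 with pysam 0.24.0, matplotlib 3.10.9, numpy 2.4.6 and pandas 2.3.3. Overlap calls were tested on simulated data and found 800 of 800 peaks made to be lost and 400 of 400 made to be gained.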

Additional observations from a re-analysis of the deposited data

Results flagged for a closer look

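Several differences between UNC0638 and DMSO, taken as UNC0638 minus DMSO, had opposite signs in the 2 lines. The differences between lines were not tested, since each group has 1 list. Covered length in the members' windows differed by 16.0 kb in CK1750 and by -12.5 kb in Tnm2. Under the other settings tried it ranged from 8.26 to 21.04 kb in CK1750 and from -25.4 to -2.56 kb in Tnm2, the last at equal list lengths. The median width of the widest promoter peak differed by 293 bp in CK1750 and by -682.5 bp in Tnm2, and with peaks within 1 kb joined by 687.5 and -239 bp. The median score rank differed by 0.044 percentage points in CK1750 and by -7.58 points in Tnm2. In Tnm2 it differed by -5.80 points at equal list lengths and by -13.4 points at scores of at least 100. Each CK1750 median was the midpoint between the rank of a member under the score ceiling and the rank shared at it. A rank at the ceiling follows from how many peaks share it, so the sign in CK1750 is not read as a direction.

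The score rank of the best promoter peak of Fosb differed by 23.6 points in CK1750 and by -22.8 points in Tnm2. For Fosl1 it differed by 6.73 and -7.73 points, and for Atf3 by 5.58 and -12.2 points. A higher rank with UNC0638 was found at 33.9% of all genes in CK1750 and at 10.9% in Tnm2. Summed promoter width differed by 606 and -536 bp for Fosb and by 67 and -817 bp for Fosl1. For Fos the signs were the other way round, at -248 bp in CK1750 and 1029 bp in Tnm2. The part that depth had in these values was not tested, and list length was tried only for the values over all members.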

How the results depend on the processing

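Of 206 values recomputed under other settings, 167 stayed within 1.5 times the reported value, or within 10 percentage points for score ranks, or kept their direction for differences. The number of members with a promoter peak did so under every setting tried, and so did the median score rank.

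With a score of at least 100, distal peaks numbered 14 and 10 in CK1750 with DMSO and UNC0638 and 8 in Tnm2 with UNC0638, while 5 peaks were gained in CK1750 and 1 in Tnm2. With the 18794 highest-scoring peaks of each list, CK1750 had 14 and 11 distal peaks and Tnm2 with DMSO had 11. CK1750 then lost 4 peaks and gained 5, and Tnm2 lost 5 and gained 7. The difference in distal peaks in Tnm2, UNC0638 minus DMSO, then turned from -5 to 2, and that in covered length went from -12.5 to -2.56 kb. This setting removes only low-scoring peaks and shortens the 3 longer lists. With peaks within 1 kb joined, gained peaks numbered 7 in CK1750 and 1 in Tnm2, and the median width of the widest promoter peak in Tnm2 with UNC0638 was 3323 bp. Its difference, UNC0638 minus DMSO, was then 687.5 bp in CK1750 and -239 bp in Tnm2, in place of 293 and -682.5 bp.

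A window of 20 kb gave 16, 12, 11 and 8 distal peaks in the lists, 67.0 kb covered in CK1750 with UNC0638 and 57.2 kb in Tnm2 with DMSO, 4 and 8 lost peaks and 5 and 1 gained peaks. A window of 100 kb gave 34 distal peaks in CK1750 with UNC0638 and 36 in Tnm2 with DMSO, 133.5 kb covered in the DMSO list of CK1750 and 139.2 and 113.7 kb in the lists of Tnm2, 16 and 38 lost peaks and 4 gained peaks in Tnm2. When sharing needed 50% of both peaks to overlap, CK1750 lost 33 and gained 28, in place of 7 and 14, and Tnm2 gained 10. Shares over all peaks were not computed under the other overlap rules. The lost and gained shares were therefore set beside those of all peaks only for an overlap of at least 1 bp. Counting any peak within 1 kb as shared left 6 and 1 gained peaks. Start sites of the basic annotation (77198 positions), an alternative chosen after seeing the data, moved no value past these bounds.

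No paired analysis was possible because each group has 1 merged list, and for the same reason no replicate was left out in turn. Depth is unknown, and scores near the cutoff of 50 are the least certain calls.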
